A study of Mus musculus with 4 samples.

Results

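The RNA interference and microRNA (miRNA) machinery was represented by 10 genes, namely Drosha, Dgcr8, Dicer1, Tarbp2, Ago1, Ago2, Ago3, Tnrc6a, Tnrc6b and Tnrc6c. Members were taken by gene symbol from the deposited table of transcripts, and every tested transcript of these genes was used. This gave 13 transcripts of 10 genes among the 34200 transcripts of 21945 genes in that table. RNA-seq was carried out on NIH/3T3 cells, an immortalised line of mouse embryonic fibroblasts, to ask how loss of the histone methyltransferase Setd2 alters the transcriptome. The knockdown (KD) group comprised 2 libraries from cells that received a pair of Setd2-specific siRNAs together. The wild type (WT) group comprised 2 libraries from cells that received Scrambled siRNA. In both groups the siRNA was delivered at 10 nM with Lipofectamine 3000, RNA was taken 48 h later, and stranded libraries were made from polyadenylated RNA. WT therefore refers to unaltered Setd2 and not to untreated cells, since both groups received siRNA and lipid. Which cultures gave the libraries is not given in the sources used here, so p-values measure the spread between these libraries, which may be technical.

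In the miRNA pathway, the nuclear Microprocessor cuts hairpins out of primary transcripts, and exportin carries them to the cytoplasm. Dicer then trims each hairpin to a short duplex, and an Argonaute protein keeps a single strand of it as a guide. Argonaute bound to a target mRNA recruits a TNRC6 (GW182) protein, which brings in deadenylases and repressors of translation. A transfected siRNA enters the same Argonaute proteins without the nuclear steps. Mature miRNAs and siRNAs are too short for these libraries and were not analysed here.

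The deposited table gave no value for a single library. It gave, for each transcript, the mean over the 4 libraries, the difference between the group means and the variance within groups, from which the mean level in each group was recovered. With 2 libraries per group, the variance within groups also sets limits: no library can lie farther from its group mean than the residual standard deviation (SD). Levels are given below as group means in normalised estimated counts, followed by these limits for the libraries. Where the difference was larger than the summed distances that the variance allows, both KD libraries must lie on the same side of both WT libraries, and the groups are called separated. Log2 fold changes compare KD with WT, with standard errors (SE), 95% confidence intervals and p-values from limma's moderated test. A transcript was called at an adjusted p-value under 0.05, adjusted over all 34200 transcripts by the Benjamini-Hochberg method. An exact permutation test of 2 against 2 libraries cannot give a p-value below 0.333, so the calls rest on variance shared between transcripts.

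Setd2, the target of the siRNAs, was examined first as a check of the labels. Its only tested transcript, ENSMUST00000153838.7 (chr9:110532597-110618633, plus strand), had a level of 923 in KD (limits 893 to 955) and 3680.4 in WT (limits 3559 to 3806). The log2 fold change was −1.99 (SE 0.08, 95% confidence interval −2.21 to −1.78, limma adjusted p = 0.0144), a change of −74.9%. Both KD libraries lay below both WT libraries by at least 1.93 on the log2 scale, so the knockdown was seen in both libraries labelled KD. Without a trend in limma's variance prior the adjusted p-value was 0.0537, and the other limma alternatives gave 0.00286 to 0.0167.

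The labelled cell type was checked on marker genes. All 7 fibroblast markers were tested, and their 16 transcripts summed to 899416 in KD and 1002976 in WT. The most abundant of these transcripts was Fn1 ENSMUST00000055226.12 in KD (307492) and that of Col1a2 in WT (346235). Of these 16 transcripts, 3 were called lower in KD, those of Col1a1 (−0.68, limma adjusted p = 0.0368), Col1a2 (−0.68, limma adjusted p = 0.0218) and Col3a1 (−0.92, limma adjusted p = 0.0201). Another 2, both of Fn1, were called higher (0.69 and 1.25, limma adjusted p = 0.0336 and 0.0397). Together these calls were 31.25% of the 16, beside 9.68% of all transcripts and 20.8% of those at a mean level of at least 1000. Of 4 epithelial markers, Epcam and Krt18 were not among the tested transcripts, and the others summed to 158 in KD and 119 in WT, mostly Cdh1. All 3 leukocyte markers were tested and summed to 678 in KD and 811 in WT. The most abundant of their transcripts was Cd68 ENSMUST00000018918.11 in KD (327) and that of Lyz2 in WT (456), and Lyz2 was called lower (−0.76, limma adjusted p = 0.0302). Ptprc, which defines leukocytes, had levels of at most 16.3 in KD and 47.2 in WT. The 3 endothelial markers summed to 84.1 in KD and 57.3 in WT. Cdh5 was their most abundant single transcript in both groups, with 35.4 in KD and 26.9 in WT. The neuronal markers, of which Map2 was not tested, summed to 55.0 in KD and 62.8 in WT, mostly Snap25. Fibroblast markers thus dominated in both groups, and the part that shifts among markers played in the differences below was not tested.

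Of the 13 member transcripts, 4 were called, against 9.68% of all transcripts tested. The calls were 3 higher in KD (background 5.44%) and 1 lower (background 4.24%). They belonged to 3 genes: Dicer1 and both transcripts of Tarbp2 rose, and Tnrc6b fell. Centring on GC content left 1 of the 4 calls, that of Dicer1, and without a variance trend limma called 0 of the 13. Most members were well expressed, with 10 of the 13 at a mean level of at least 1000, where more transcripts can be called. Among those 10, 3 were called, beside 20.8% of the 9010 transcripts at such levels in the whole table, so the share of calls among the members is not far from that background. KD and WT libraries were separated for 7 of the 13 member transcripts (5 higher and 2 lower in KD), beside 54.8% of all transcripts. At levels of at least 1000 they were separated for 6 of 10, beside 71.7%. The median log2 fold change of the 13 was 0.24, beside −0.01 for all transcripts, and 8 were above 0. For the 10 at higher levels it was −0.03, beside 0.10 for all transcripts at such levels. The members thus showed no common direction, and the differences lay in particular genes.

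**Figure D1:**
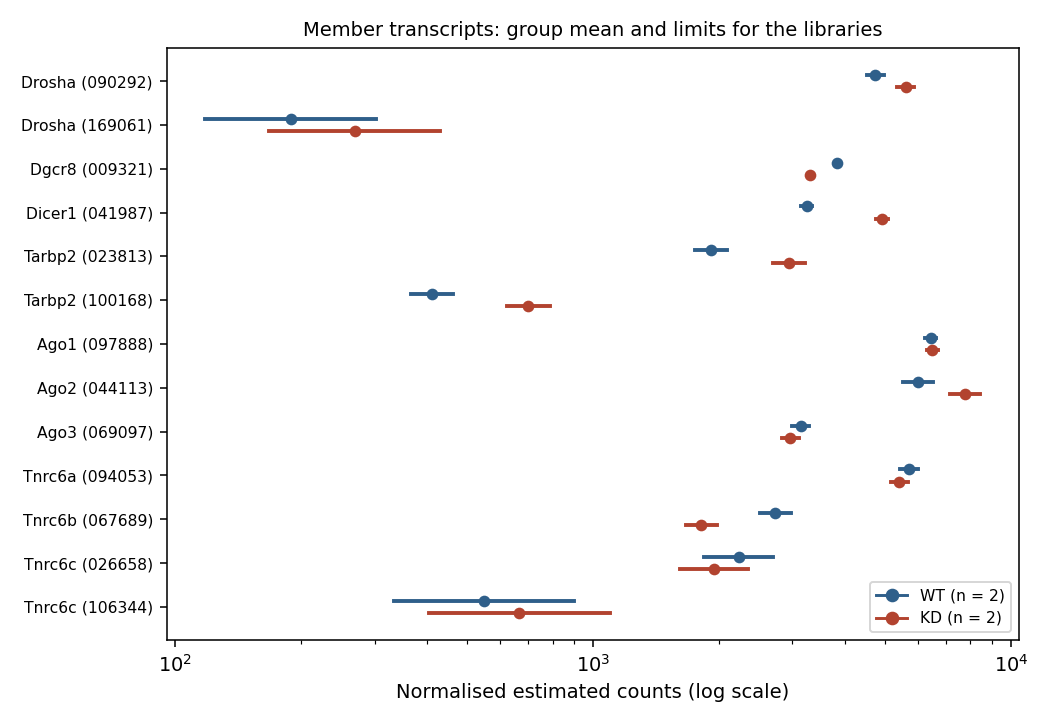
Levels of the 13 member transcripts in WT (blue) and KD (red), in normalised estimated counts on a log scale; points are group means (n = 2 libraries each) and bars are the limits within which the libraries of the group must lie. Bars of KD and WT stand clear of each other for the called transcripts of Dicer1, Tarbp2 and Tnrc6b. They also do so for Ago2, Dgcr8 and Drosha ENSMUST00000090292.12, which were not called, and overlap for the others.

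The differences of the 13 transcripts ranged from −0.59 to 0.76. Their residual SDs between libraries ranged from 0.01 to 0.72 on the log2 scale, and the widest were those of minor transcripts of Drosha and Tnrc6c. This spread is seen in the plot of fold changes, where the intervals of the minor transcripts span both directions.

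**Figure D2:**
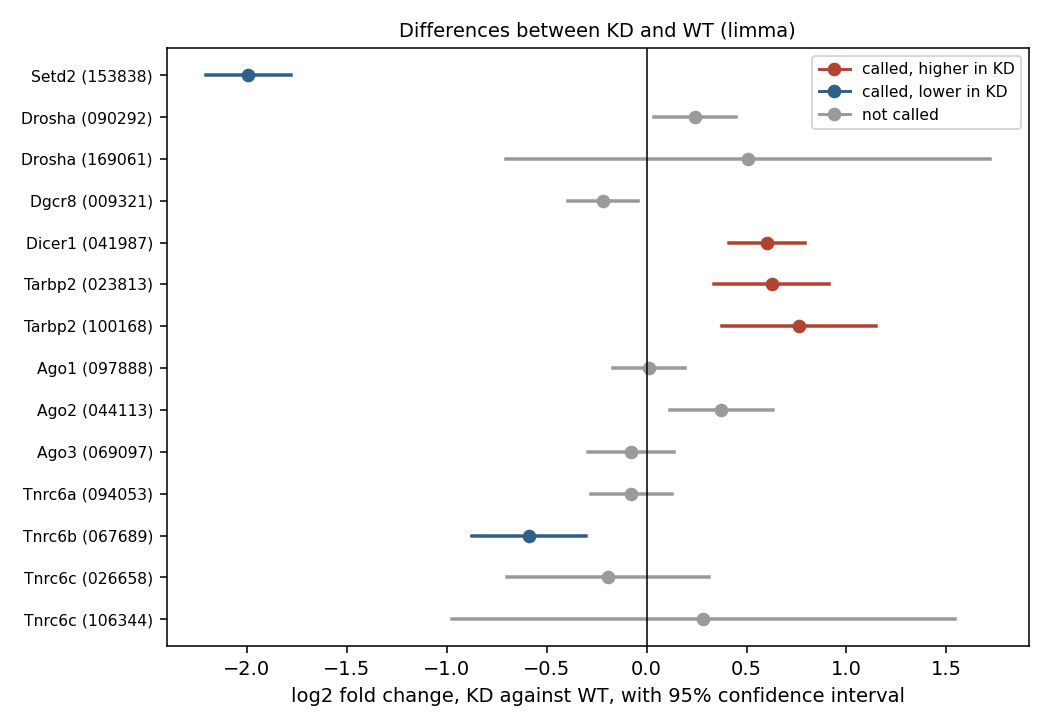
Log2 fold changes, KD against WT, of Setd2 and the 13 member transcripts, with 95% confidence intervals from limma (2 libraries per group). Red and blue mark transcripts called higher and lower in KD, and grey those that were not called.

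The Microprocessor consists of the RNase Drosha and its RNA-binding partner Dgcr8. limma called neither gene, while the Wald test, which recomputes the authors' own from the deposited difference and its error (read assignment included), called the main transcript of each. These main transcripts differed in opposite directions by more than the libraries of a group did. Drosha ENSMUST00000090292.12 (chr15:12824863-12935291, plus strand, 35 exons) had a level of 5598 in KD (limits 5337 to 5872) and 4738 in WT (limits 4517 to 4969.9). Both KD libraries lay above both WT libraries, by at least 0.14 on the log2 scale. The log2 fold change of 0.24 (SE 0.08, 95% confidence interval 0.03 to 0.45) did not pass adjustment (limma adjusted p = 0.132), and centring on GC content left 0.16. A minor Drosha transcript, ENSMUST00000169061.7, had levels of 269 in KD (limits 168 to 429.7) and 189 in WT (limits 118 to 302). Its limits overlapped between the groups, and its log2 fold change was 0.51 (SE 0.46, limma adjusted p = 0.527). The Drosha transcripts have 33 of 35 exons in common and start 48 bases apart. Of the 31-base words in the minor transcript, 1.81% are absent from the main Drosha transcript, so few reads can tell them apart. The SD from read assignment alone was 0.53 for it. Per kilobase it made up 4.53% of the Drosha level in KD and 3.79% in WT.

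Dgcr8, whose product holds the hairpin for Drosha, was measured by the transcript ENSMUST00000009321.10 (chr16:18253948-18289246, minus strand, 14 exons). Its level was 3302 in KD (limits 3286 to 3319) and 3843 in WT (limits 3824 to 3862). Both KD libraries lay below both WT libraries by at least 0.21 on the log2 scale, with the narrowest spread of the 13 transcripts. The log2 fold change of −0.22 (SE 0.07, 95% confidence interval −0.40 to −0.04) was not called (limma adjusted p = 0.118), since limma takes the error largely from transcripts of similar level. The SD from read assignment, 0.02, was larger than the SD between libraries, 0.01. Dgcr8 overlaps other genes: 72.0% of its 31-base words occur in no other gene. Trmt2a, which overlaps its end on the opposite strand, holds 18.5% of them, and 1 of the 3 tested Trmt2a transcripts, ENSMUST00000115640.7, was called higher (0.48, limma adjusted p = 0.0365). Whether strand was used when reads were assigned is not given in the sources used here. Gm49776, which overlaps Dgcr8 on the same strand, holds 6.95% of its words, and strand cannot separate these. The pseudogene Gm43555 on chromosome 3 holds 5.01%. The Dgcr8 value is uncertain to that extent.

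The Dgcr8 mRNA is itself known as a substrate of the Microprocessor, because it carries hairpins. A hairpin annotated as Mir1306 lies in exon 2 of the tested Dgcr8 transcript, at chr16:18284239-18284317 on the minus strand. It covers bases 100 to 178 of the coding sequence. The hairpin is given as it stands in the mRNA, with the mature arms in capitals, the 5p arm of 23 bases first and the 3p arm of 21 bases second. The mature arms follow as RNA, with the seed (bases 2 to 8) in capitals. These sequences are from RefSeq GRCm38.p6. Mir1306 itself was not among the tested transcripts.
Mir1306 hairpin in Dgcr8: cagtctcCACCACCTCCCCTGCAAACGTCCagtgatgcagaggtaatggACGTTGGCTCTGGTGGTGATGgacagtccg
mmu-miR-1306-5p: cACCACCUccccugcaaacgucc
mmu-miR-1306-3p: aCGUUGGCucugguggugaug

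The largest rises among the members were those of Dicer1 and Tarbp2, which act at the cytoplasmic cutting step. Dicer1 encodes the RNase that makes the miRNA and siRNA duplex, and Tarbp2 encodes TRBP, a double-stranded RNA-binding partner of Dicer that helps in loading Argonaute. Dicer1 rose by 51.6% and the Tarbp2 transcripts by 54.4% and 69.9% in KD, in all cases with both KD libraries above both WT libraries.

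Dicer1 ENSMUST00000041987.6 (chr12:104687742-104751952, minus strand, 27 exons) had a level of 4919 in KD (limits 4765 to 5078) and 3244 in WT (limits 3142 to 3348). The groups were separated by at least 0.54 on the log2 scale. The log2 fold change was 0.60 (SE 0.07, 95% confidence interval 0.41 to 0.79, limma adjusted p = 0.0238), the lowest adjusted p-value among the members. At levels of at least 1000, the upper 10th percentile of all log2 fold changes began at 0.53, and Dicer1 lay above it. Nearly all 31-base words of the transcript, 99.9%, occur in no other gene. Of the alternatives tried, the lack of a trend in limma's variance prior ended the call (limma adjusted p = 0.128), and the other limma alternatives gave adjusted p-values from 0.00759 to 0.0271.

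Tarbp2 ENSMUST00000023813.8 (chr15:102518459-102523676, plus strand, 9 exons) had a level of 2950.5 in KD (limits 2701 to 3223) and 1911 in WT (limits 1749 to 2087). It rose by 0.63 on the log2 scale (SE 0.11, 95% confidence interval 0.34 to 0.91, limma adjusted p = 0.0400). The groups were separated by at least 0.45. Tarbp2 ENSMUST00000100168.9 (chr15:102518357-102523602, 7 exons) had a level of 700.4 in KD (limits 624 to 787) and 412 in WT (limits 367 to 463). This transcript rose by 0.76 (SE 0.15, 95% confidence interval 0.38 to 1.15, limma adjusted p = 0.0466), with the groups separated by at least 0.53. Both Tarbp2 transcripts were therefore higher in each KD library than in either WT library. Centring on the GC content of transcripts ended both calls, with log2 fold changes of 0.43 and 0.58 (limma adjusted p = 0.0958 and 0.0935). The lack of a variance trend ended them too, and over the limma alternatives the adjusted p-values ran from 0.0151 to 0.149 and from 0.0235 to 0.144. The Tarbp2 transcripts have a GC content of 57.5% and 58.8%, the highest of the 13.

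The Tarbp2 transcripts differ in their coding sequence. ENSMUST00000100168.9 leaves out exons 2 and 3 of the longer transcript, which hold 273 coding bases or 91 codons and keep the reading frame. The junctions that separate them are given with 20 bases on each side of the splice, the end of exon 1 in lower case and the start of the next exon in capitals. The next exon is chr15:102519122-102519291 in ENSMUST00000023813.8 and chr15:102521121-102521213 in ENSMUST00000100168.9, by the GENCODE M21 annotation of GRCm38.
Tarbp2 ENSMUST00000023813.8: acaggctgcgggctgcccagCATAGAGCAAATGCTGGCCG
Tarbp2 ENSMUST00000100168.9: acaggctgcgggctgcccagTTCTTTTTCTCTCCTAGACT
Per kilobase, ENSMUST00000100168.9 made up 22.1% of the Tarbp2 level in KD and 20.5% in WT. The isoforms thus rose side by side with little shift between them, though the difference between their changes was not tested. Tarbp2 also has processed copies elsewhere in the genome. The pseudogene Gm18584 (chr6:47432126-47433089) holds 53.9% of the 31-base words of the longer Tarbp2 transcript and 42.9% of those of the shorter. Its own level was only 12.9 in KD and 14.4 in WT (log2 fold change −0.15, limma adjusted p = 0.913), so few reads in all were assigned to it.

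Argonautes hold the guide strand, and Ago2 is the member of the family that cuts fully paired targets. None of the 3 Argonaute members was called by limma. Ago2, 1 of 3, had an unadjusted limma p-value under 0.05. So did 9656 of all 34200 transcripts, and 4392 of the 9010 at a mean level of at least 1000. The Wald test called Ago2, among 6233 of all 34200 transcripts. Ago2 ENSMUST00000044113.11 (chr15:73095844-73184935, minus strand, 19 exons) had a level of 7773 in KD (limits 7168 to 8429) and 5997 in WT (limits 5529.9 to 6503). Both KD libraries lay above both WT libraries, by at least 0.21 on the log2 scale. The log2 fold change was 0.37 (SE 0.10, 95% confidence interval 0.12 to 0.63, limma adjusted p = 0.0865). Ago2 passed the threshold once transcripts with a mean level under 100 were left out and the rest refitted (limma adjusted p = 0.0405), while the other limma alternatives gave 0.0811 to 0.233. A pseudogene on the X chromosome, Gm6088, holds 4.56% of the 31-base words of Ago2 and had levels of 1.04 in KD and 10.9 in WT.

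Ago1 ENSMUST00000097888.9 (chr4:126435012-126468583, minus strand, 19 exons) had nearly equal levels of 6484 in KD (limits 6294 to 6679) and 6433 in WT (limits 6245 to 6626). Its log2 fold change was 0.01 (95% confidence interval −0.17 to 0.19, limma adjusted p = 0.936). Ago3 ENSMUST00000069097.12 (chr4:126332732-126429556, minus strand, 19 exons) had levels of 2968 in KD (limits 2829 to 3113) and 3136 in WT (limits 2990.1 to 3289.7). Its log2 fold change was −0.08 (95% confidence interval −0.30 to 0.14, limma adjusted p = 0.578). The limits of KD and WT overlapped for Ago1 and Ago3, and the sign of both small differences turned when effects were centred on GC content (−0.033 and 0.10). Ago1 and Ago3 are neighbours on chromosome 4, on the same strand with 5455 bases between them. Ago4, the remaining Argonaute gene, follows Ago1 after 20957 bases and was listed among partners of the silencing complex. Its level was far lower, 16.0 in KD (limits 12.3 to 20.9) and 25.2 in WT (limits 19.4 to 32.8), with a log2 fold change of −0.64 (SE 0.40, limma adjusted p = 0.367). The cluster was thus dominated by Ago1 and Ago3, and neither was called.

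TNRC6 proteins link Argonaute to the enzymes that shorten poly(A) tails. limma called Tnrc6b alone among the 3 genes, lower in KD. Tnrc6b ENSMUST00000067689.8 (chr15:80711313-80941085, plus strand, 25 exons) had a level of 1817 in KD (limits 1668 to 1979) and 2731 in WT (limits 2507 to 2975), a change of −33.5%. Both KD libraries lay below both WT libraries by at least 0.41 on the log2 scale. The log2 fold change was −0.59 (SE 0.11, 95% confidence interval −0.87 to −0.30, limma adjusted p = 0.0433). Centring on GC content left −0.51 and ended the call (limma adjusted p = 0.0667), as did the lack of a variance trend, and the limma alternatives together gave adjusted p-values from 0.0167 to 0.155. The transcript is the longest of the members, with 17332 bases, of which 11609 lie in its 3′ untranslated region.

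Tnrc6a ENSMUST00000094053.6 (chr7:123124181-123195296, plus strand, 24 exons) had a level of 5411 in KD (limits 5160.2 to 5675) and 5707 in WT (limits 5442 to 5984). The groups were not separated, and the log2 fold change was −0.08 (95% confidence interval −0.28 to 0.13, limma adjusted p = 0.573), or −0.040 after centring on GC content. Tnrc6c was measured by a pair of transcripts that have 20 of 22 exons in common and start 524 bases apart. Tnrc6c ENSMUST00000026658.12 (chr11:117654289-117763437, plus strand) had levels of 1947 in KD (limits 1613 to 2351) and 2228 in WT (limits 1846 to 2691), a log2 fold change of −0.19 (SE 0.19, limma adjusted p = 0.562), or −0.29 after centring on GC content. Tnrc6c ENSMUST00000106344.7 had levels of 666 in KD (limits 405 to 1095) and 547 in WT (limits 333 to 899.6), a log2 fold change of 0.28 (SE 0.48, limma adjusted p = 0.747). The limits of both Tnrc6c transcripts overlapped between the groups. Only 4.57% and 5.90% of their 31-base words are absent from the other, so their opposite signs carry the error of read assignment, which had an SD of 0.18 and 0.42. The summed level of the Tnrc6c transcripts was 2614 in KD and 2776 in WT.

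Tnrc6b thus fell, while the intervals of the other TNRC6 genes included 0, and the difference between Tnrc6b and these genes was not tested. In bulk RNA, fewer cells that express a gene and less of its RNA per cell cannot be told apart, and this holds for each member.

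**Figure D3:**
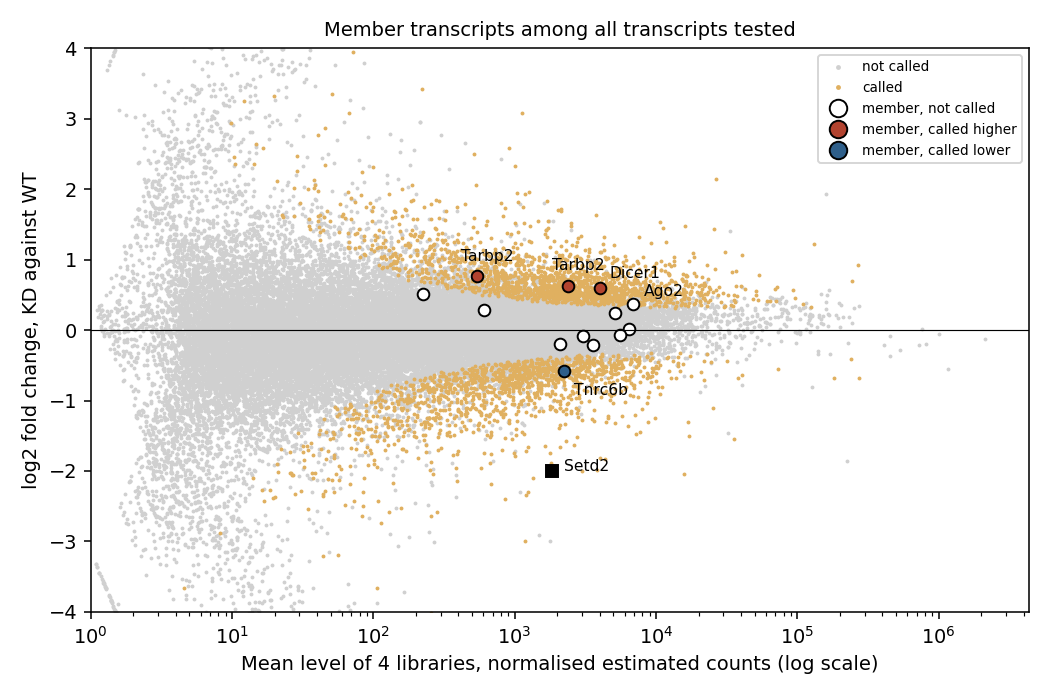
Log2 fold change, KD against WT, against the mean level over the 4 libraries (normalised estimated counts, log scale) for all transcripts tested; large circles are the 13 member transcripts and the square is Setd2, and differences beyond 4 in size are not drawn. Called members (filled) lie at the edge of the band of transcripts that were not called (grey) at like levels.

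Levels were compared between genes per kilobase of annotated transcript, with all tested transcripts of a gene added up. In WT, Tarbp2 stood highest with 1577 normalised estimated counts per kilobase, followed by Drosha with 1089.8, Ago1 with 890.1 and Dgcr8 with 889.6. Tnrc6a followed with 697, Ago2 with 435, Dicer1 with 329 and Tnrc6c with 317. Ago3 with 201 and Tnrc6b with 158 were lowest. The order of the 10 genes was the same in KD. In WT the limits for the libraries overlapped between neighbours in this order for Ago1 and Dgcr8 and for Dicer1 and Tnrc6c, and for no other neighbours. In KD no neighbours overlapped, as Dgcr8 stood at 764 below Ago1 at 897, and Dicer1 at 499 above Tnrc6c at 299. Ago2 had 563 per kilobase in KD. Ago4 had 2.45 per kilobase in KD and 3.86 in WT. The scale rests on annotated lengths, and Ago2, Ago3 and Tnrc6b carry annotated 3′ untranslated regions of 11064, 12742 and 11609 bases, so shorter ends in these cells would raise their levels per kilobase.

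**Figure D4:**
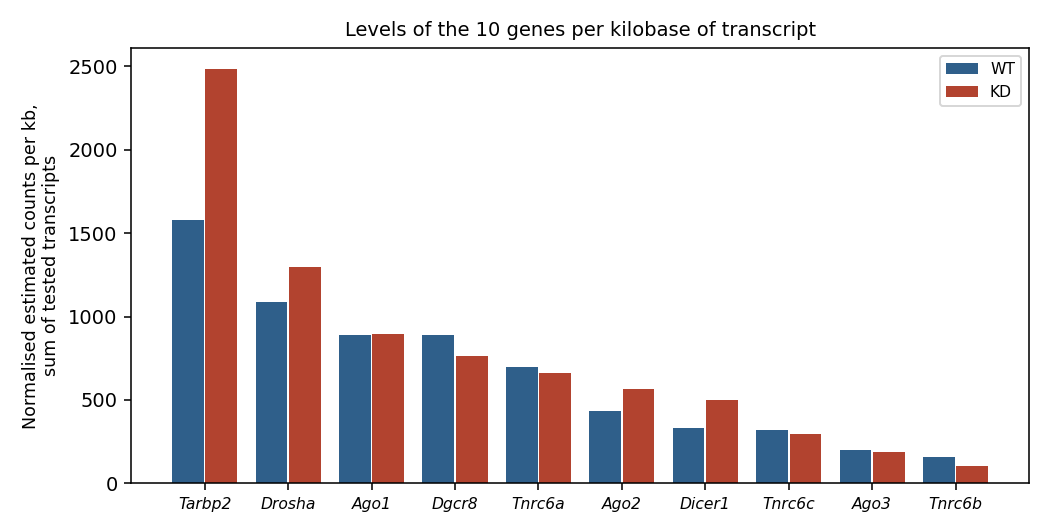
Level of each of the 10 genes in WT (blue) and KD (red) in normalised estimated counts per kilobase, summed over the tested transcripts; bars are group means of 2 libraries. The order of the genes, from Tarbp2 to Tnrc6b, is the same in both groups.

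The called members were also compared by position and promoter sequence. Ago2, Drosha, Tarbp2 and Tnrc6b all lie on chromosome 15, and the genes on it include members that rose, fell and were not called. Promoters, taken as the 250 bases before the annotated start in RefSeq GRCm38.p6, were found for 9 of the 10 members, all but Ago2. Where a gene had several, the promoter nearest to the start of a tested transcript was used. Their median GC content was 72.4%, beside 52.4% for all 32851 promoters, and their median number of CpG was 28, beside 6. All 32851 were counted whether or not their genes were expressed in these cells. Promoters of other genes at like levels were not compared, and the shares of words below were not adjusted for GC content. The words below were searched on both strands in the same 250 bases, and overlapping matches were counted separately. The GC box GGGCGG, which reads CCGCCC on the other strand, was in 6 of the 9 member promoters and in 32.7% of all promoters. The CCAAT word, which reads ATTGG on the other strand, was in 6 of the 9 and in 33.9% of all. The ETS core CCGGAAG, which reads CTTCCGG on the other strand, was in 2 of 9 and in 6.91% of all. The TATA word TATAAA, which reads TTTATA on the other strand, was in 0 of 9 and in 12.4% of all, and the E-box CACGTG in 0 of 9 and in 6.02% of all.

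The promoters of the 3 called genes are shown because these genes changed in opposite directions. Capitals mark the GC box and the CCAAT word on either strand. Dicer1 (chr12:104751953-104752202, minus strand) holds 1 GC box and 1 CCAAT word directly before the start of the tested transcript. Tarbp2 (chr15:102517942-102518191, plus strand), whose RefSeq start lies 165 bases before the nearest tested start, holds 3 and 3. Tnrc6b (chr15:80711063-80711312, plus strand) holds 1 and 4, directly before the tested start.
Dicer1 promoter: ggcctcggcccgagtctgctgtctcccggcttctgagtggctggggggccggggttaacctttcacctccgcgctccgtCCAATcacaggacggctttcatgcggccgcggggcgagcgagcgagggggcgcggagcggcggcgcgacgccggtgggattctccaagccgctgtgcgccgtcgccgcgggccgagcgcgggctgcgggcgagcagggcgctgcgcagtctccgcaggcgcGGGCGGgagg
Tarbp2 promoter: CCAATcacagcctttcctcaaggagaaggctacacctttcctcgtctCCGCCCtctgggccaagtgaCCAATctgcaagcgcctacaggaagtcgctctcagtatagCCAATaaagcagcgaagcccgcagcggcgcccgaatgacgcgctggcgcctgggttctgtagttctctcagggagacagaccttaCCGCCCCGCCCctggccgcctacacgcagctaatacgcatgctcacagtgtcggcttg
Tnrc6b promoter: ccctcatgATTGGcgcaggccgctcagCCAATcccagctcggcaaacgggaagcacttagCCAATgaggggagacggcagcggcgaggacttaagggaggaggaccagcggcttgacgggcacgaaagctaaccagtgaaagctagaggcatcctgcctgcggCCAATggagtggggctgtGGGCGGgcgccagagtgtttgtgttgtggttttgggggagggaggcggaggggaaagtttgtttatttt
Both words were thus present in promoters of called genes of either direction. A match is a description of letters and not of a bound factor.

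The other genes of the pathway were described with 8 lists. Of their 86 genes, 82 were tested with 180 transcripts, of which 15 were called, 7 higher and 8 lower in KD. This is 8.33%, beside 9.68% of all transcripts and 20.8% of those at a mean level of at least 1000. The share of calls among list transcripts at such levels was not counted. The median log2 fold change was 0.07, beside −0.01 for all transcripts and 0.10 for all transcripts at a mean level of at least 1000. After centring on GC content 9 of the 15 were still called. Without a variance trend limma called 0 of the 180, beside 127 of all 34200. An unadjusted p-value under 0.05 was then found for 31 of the 180, beside 8218 of all 34200. The Wald test called 26 of the 180, beside 6233 of all 34200. With a minimum level of 100 limma called 24 in the lists, beside 4965 of all 18808 transcripts then tested.

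Cofactors that act with the Microprocessor, bind the cap or edit hairpins had 30 transcripts of 11 genes (median −0.05). Of these, 4 were called, all lower in KD, or 13.3%, beside 9.68% of all transcripts (4.24% lower). Ncbp2, the subunit of the nuclear cap-binding complex that contacts the cap, fell in both called transcripts. Its main transcript, ENSMUST00000023460.6, had 3867 in KD and 5880.3 in WT (−0.60, limma adjusted p = 0.0450), and the minor ENSMUST00000126215.1 had 64.3 and 292 (−2.17, limma adjusted p = 0.0434). Centring on GC content ended both calls but left values of −0.51 and −2.22 (limma adjusted p = 0.0739 and 0.0518), and over the limma alternatives the adjusted p-values ran from 0.0170 to 0.161 and from 0.0174 to 0.141. Adar encodes an enzyme that edits double-stranded RNA, and its called transcript, the minor ENSMUST00000029563.13, had 476 in KD and 743 in WT (−0.64, limma adjusted p = 0.0391). Its main transcript, ENSMUST00000098924.8, had 2140.3 in KD and 1989 in WT and was not called (0.11, limma adjusted p = 0.559). Srrt encodes the cap-associated cofactor ARS2, and its called transcript, the minor ENSMUST00000199243.4, had 2382 in KD and 3162 in WT (−0.41, limma adjusted p = 0.0418). The main Srrt transcript, ENSMUST00000040873.11, had 9498 in KD and 8327 in WT and was not called (0.19, limma adjusted p = 0.131). Centring on GC content moved the called Srrt transcript to −0.62, and it was still called. For the called transcripts of Adar and Srrt the SD of read assignment, 0.22 and 0.20, was larger than that between libraries, 0.09 and 0.04, and the Wald test that includes it did not call them. The calls in this list thus included the main transcript of Ncbp2 alone, and the main transcripts of Adar and Srrt had differences above 0.

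The export list, Xpo5 and Ran, had 3 transcripts (median 0.41), too few for a share to be compared. Of these, 2 were called, both higher in KD. Over all transcripts 9.68% were called (5.44% higher), and 20.8% at a mean level of at least 1000. Both calls in the list were of Ran, the GTPase that loads exportins. Ran ENSMUST00000031383.13 had 70594 in KD and 53261 in WT (0.41, limma adjusted p = 0.0402), and ENSMUST00000111343.1 had 8404 and 5848 (0.52, limma adjusted p = 0.0263). Ran serves nuclear transport at large and not hairpins in particular. Xpo5, the exportin for hairpins, named after its value was seen, had 9027 in KD and 7524 in WT and was not called (0.26, limma adjusted p = 0.0799). All 3 transcripts of this list, Xpo5 included, were called higher with a minimum level of 100 and by the Wald test.

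Partners of Dicer and chaperones that load Argonaute had 15 transcripts of 11 genes (median 0.16). Of these, 2 were called, both higher, or 13.3%, beside 9.68% of all transcripts (5.44% higher). Fkbp4, a co-chaperone of HSP90, had 14515 in KD and 9406 in WT (0.63, limma adjusted p = 0.0190), or 0.41 after centring on GC content, where it was still called. Stip1, which joins HSP70 to HSP90, had 14961 in KD and 11057 in WT (0.44, limma adjusted p = 0.0291). Both act on many clients besides Argonaute. Prkra, which encodes the Dicer partner PACT and is named after its value was seen, had 1235 in KD and 1563 in WT and was not called (−0.34, limma adjusted p = 0.0689), though its libraries were separated. With a minimum level of 100, limma called 2 higher and 1 lower in this list, and the Wald test called 4 higher and 1 lower.

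Genes that tail or degrade miRNAs had 16 transcripts of 8 tested genes, without Lin28a, which was not tested. limma called 0 of them (median 0.01), beside 9.68% of all transcripts. An unadjusted limma p-value under 0.05 was found for 2, beside 9656 of all 34200 transcripts. The Wald test called 1, beside 6233 of all 34200. Refitted with a minimum level of 100, limma called 1, lower in KD. The transcript of this list with the highest mean level was that of Zswim8, a ubiquitin ligase adaptor of target-directed miRNA decay, with 6840.2 in KD and 5720.1 in WT (0.26, limma adjusted p = 0.287). Centring on GC content left 0.073 for this Zswim8 transcript.

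Partners of the silencing complex had 26 transcripts of 12 genes (median 0.06). Of these, 2 were called, both higher, or 7.69%, beside 9.68% of all transcripts (5.44% higher). With a minimum level of 100 limma called 2 higher and 1 lower, and the Wald test 3 higher and 1 lower. Rbm4 encodes an RNA-binding protein that joins Argonaute in some cells, and its transcript ENSMUST00000180248.7 had 869.8 in KD and 569 in WT (0.61, limma adjusted p = 0.0328). The other 2 Rbm4 transcripts had 0.29 and 0.27 and were not called. Wtip, a LIM protein related to Ajuba and Limd1, had 1537 in KD and 1134 in WT (0.44, limma adjusted p = 0.0461). Centring on GC content left 0.26 and ended this call (limma adjusted p = 0.146), and over the limma alternatives the adjusted p-values of Wtip ran from 0.0225 to 0.158.

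The deadenylases that TNRC6 proteins recruit, with poly(A)-binding proteins, had 35 transcripts of 14 genes (median 0.09). Of these, 1 was called higher and 2 lower, together 8.57%, beside 9.68% of all transcripts. limma called 3 higher and 2 lower with a minimum level of 100. Cnot7 and Cnot6l, which encode catalytic subunits, had 1 called transcript each. Cnot7 ENSMUST00000149992.1, a minor transcript, had 1017 in KD and 1553 in WT (−0.61, limma adjusted p = 0.0283). The main Cnot7 transcript, ENSMUST00000034012.9, had 3856 in KD and 3644 in WT and was not called (0.08, limma adjusted p = 0.638). Cnot6l ENSMUST00000155901.7 had 808 in KD and 1164 in WT (−0.53, limma adjusted p = 0.0438). Cnot6l ENSMUST00000113005.8, of similar mean level, had 872 in KD and 1138 in WT and was not called (−0.38, limma adjusted p = 0.108). The rare Cnot6l ENSMUST00000122003.7 was not called either (−0.96, limma adjusted p = 0.273). Pabpc4 encodes a cytoplasmic poly(A)-binding protein, and its main transcript, ENSMUST00000080178.12, had 19029 in KD and 12721 in WT (0.58, limma adjusted p = 0.0430). The other 3 Pabpc4 transcripts had log2 fold changes of 0.29, 0.01 and 0.25 and were not called. Centring on GC content ended all 3 calls, with −0.41 for Cnot7, −0.14 for Cnot6l and 0.47 for Pabpc4 (limma adjusted p = 0.0666, 0.446 and 0.0740). limma then called 0 transcripts of this list. An unadjusted p-value under 0.05 was then found for 8, beside 8868 of all 34200 transcripts. The Wald test without centring called 7, beside 6233 of all 34200. Over the limma alternatives the adjusted p-values of these 3 transcripts ran from 0.0112 to 0.446.

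Decapping and decay factors had 22 transcripts of 11 genes (median 0.08). Of these, 1 was called, lower in KD, or 4.55%, beside 9.68% of all transcripts (4.24% lower). Both limma with a minimum level of 100 and the Wald test called 2 higher and 1 lower. The call was Dcp2 ENSMUST00000025350.9, of the decapping enzyme, with 1556 in KD and 2529 in WT (−0.70, limma adjusted p = 0.0201). A minor Dcp2 transcript, ENSMUST00000202306.1, had 83.0 in KD and 122 in WT and was not called (−0.56, limma adjusted p = 0.143).

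A list of noncoding genes, meant as hosts of miRNAs, had 33 transcripts of 13 tested genes, without Mir703hg, Mir9-3hg and Mirt2, which were not tested. Mirt1 and Mirt2 are long noncoding RNAs linked to myocardial infarction and not miRNA hosts, so the 3 Mirt1 transcripts, none of them called, do not belong under that heading but are part of the counts and the median given here. limma called 1, lower in KD (median −0.13), or 3.03%, beside 9.68% of all transcripts (4.24% lower). An unadjusted limma p-value under 0.05 was found for 4, beside 9656 of all 34200 transcripts. The call was Mir670hg ENSMUST00000210851.1, at 81.6 in KD and 195 in WT (−1.25, limma adjusted p = 0.0301).

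**Figure D5:**
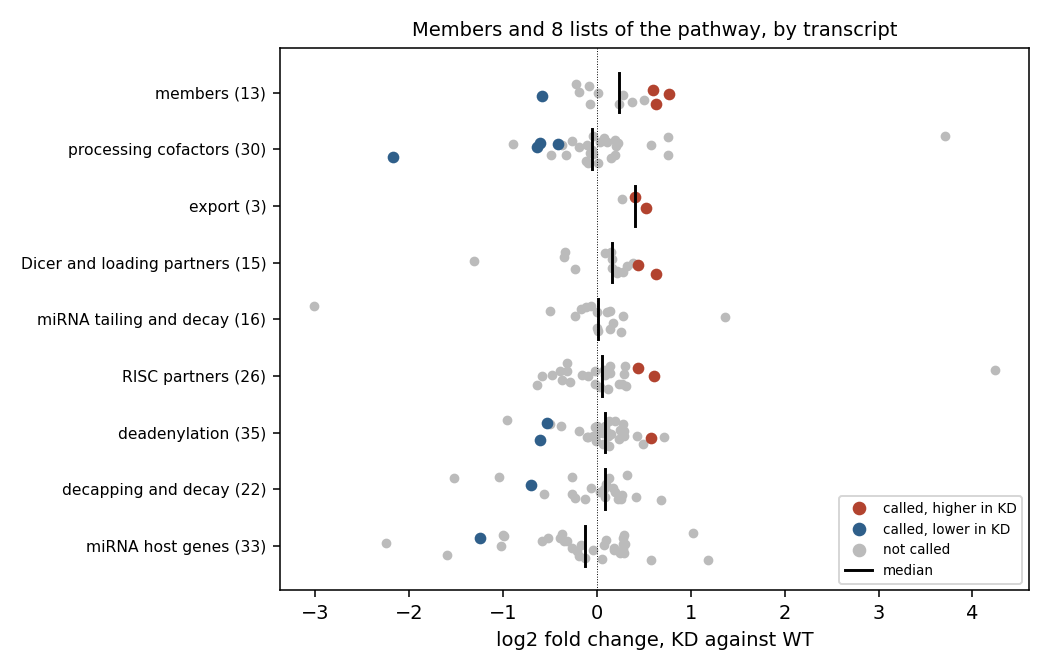
Log2 fold change, KD against WT, of each tested transcript of the members and of the 8 lists (number of transcripts in brackets); black lines are medians. Called transcripts are red (higher in KD) or blue (lower), with the 4 calls among processing cofactors all lower and the 2 calls in each of the export, loading and partner lists all higher. These are few calls per list, and over all transcripts 5.44% were called higher and 4.24% lower.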

How the data were processed

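RNA-seq of 2 KD and 2 WT libraries, grouped by the knockdown label, was analysed. The authors removed adapters with BBDuk 38.22, quantified transcripts with Kallisto 0.44.0 and compared groups with Sleuth 0.30.0. The index annotation and the filter on low counts are not given in the sources used here. The deposited means, differences between groups and standard errors are natural log values that the authors derived in Sleuth from size-normalised estimated counts plus 0.5; variances are on the same scale. No value of a single library was used here, and depth is unknown. From the authors' own comparison, the difference of group means, its standard error and the residual variance were used; its p-values, q-values and likelihood ratio statistics were not. The gene table, which holds combined p-values and q-values, was not used.

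The test was rebuilt here from the difference of group means and the variance within groups (2 residual degrees of freedom). This was done with limma 3.58.1 in R 4.3.3, with a trend on the mean and 2.66 prior degrees of freedom. Levels are the exponential of the group mean, minus 0.5. Transcript structures and sequences came from GENCODE M21 (GRCm38), with 98.6% of transcripts matched in the same version; 31-base words were used because Kallisto commonly assigns reads by words of that length. Promoters and miRNAs came from RefSeq GRCm38.p6. Tables and figures used Python 3.11.15, pandas 2.3.3, numpy 2.4.6 and matplotlib 3.10.9. Alternatives were no variance trend, a minimum mean level of 100, centring on the median or over 50 classes of GC content, and a Wald test. The Wald test was the deposited difference over its standard error, which recomputes the authors' own Wald test and is no independent check of it. Its count of calls is not the number of changed transcripts that the authors reported.

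The members and lists were chosen with earlier results of these data known. Named genes were all members, Setd2, and in each list the called transcripts with the largest rise and fall, every called gene where 5 or fewer were called, or the gene with the highest level where none was called.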

Additional observations from a re-analysis of the deposited data

How the results depend on the processing

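The 4 calls among the members held when effects were centred on the median of all transcripts (a shift of 0.01) and when transcripts with a mean level under 100 were left out, which added Ago2 as the 5th call. Without a trend in limma's variance prior, 127 transcripts were called in place of 3312 (40.2% of them higher in place of 56.2%). Of the 13 member transcripts, 0 were called in place of 4 (4 at an unadjusted p-value under 0.05). Of the 180 in the pathway lists, 0 were called in place of 15 (31 unadjusted). Of all 34200 transcripts, 8218 had an unadjusted limma p-value under 0.05 in this setting. Setd2 lost its call too (limma adjusted p = 0.0537). This setting cannot change a log2 fold change, which for Setd2 was −1.99 as before. Centring over GC content gave 2054 transcripts (53.0% higher), 1 member (Dicer1, 0.64, limma adjusted p = 0.0271) and 10 in the lists, and reversed the small differences of Ago1 (−0.033) and Ago3 (0.10). The Wald test, whose error includes read assignment, called 6233 transcripts, 7 members and 26 in the lists, with Ago2, Dgcr8 and the main Drosha transcript added to the 4. With a minimum level of 100, the counts were 4965 and, in the lists, 24, and fewer transcripts were then tested (18808). With the most abundant transcript alone, levels per kilobase were 1255 in WT and 1937 in KD for Tarbp2, and 255.4 and 223.2 for Tnrc6c, because the minor transcript was left out. For the other changes the cause was not tested. No paired analysis was possible because the table held no value for a single library, and for the same reason no replicate was left out and no other pseudocount was tried. Depth is unknown, so no detection limit was computed.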

Other observations

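Transcripts annotated as miRNA, which in libraries of polyadenylated RNA cannot be read as mature miRNAs, numbered 205 in the table, with a median level of 8.99 normalised estimated counts and 11 at or above 100. By limma 1 of them was called, Gm49346 (79.6 in KD, 205 in WT, log2 fold change −1.36, adjusted p = 0.0444), beside 9.68% of all transcripts. An unadjusted limma p-value under 0.05 was found for 10, beside 9656 of all 34200 transcripts. The most abundant, Mir6236, had 16805 in KD and 29037 in WT (−0.79, SE 0.66, limma adjusted p = 0.490). Gm49346 and Mir6236 were chosen after their values were seen.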
